A study of Homo sapiens with 7 samples.

Results

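The epithelial miRNAs examined here are hsa-miR-203a-3p, hsa-miR-205-5p and the 5 miRNAs of the miR-200 family, hsa-miR-200a-3p, hsa-miR-200b-3p, hsa-miR-200c-3p, hsa-miR-141-3p and hsa-miR-429. They were chosen by name, as miRNAs of epithelial cells that oppose epithelial-mesenchymal transition (EMT), and were 7 of the 2656 mature miRNAs counted. The counts came from small RNA-seq of small extracellular vesicles (sEVs), which cells shed into their medium, here from HepG2, a human hepatocellular carcinoma line. HepG2 cells carried a lentiviral, doxycycline-inducible short hairpin RNA, either scrambled (shCTR, 3 libraries) or directed at SYNCRIP (shSYNCRIP, 4 libraries), an RNA-binding protein linked to the sorting of miRNAs into sEVs. Cells of both groups were selected with puromycin and grown in medium with sEV-depleted serum, sEVs were pelleted by differential ultracentrifugation, and SYNCRIP was targeted with 1 hairpin sequence. By the paper's methods, hairpin expression was induced by treating cells with doxycycline. The labels call the libraries biological replicates, and a cell line field runs from HepG2 to HepG8 where the titles name HepG2. The questions were which of these miRNAs HepG2 sEVs hold, how miR-203a-3p compares with the others, and whether any of them differed after SYNCRIP silencing.

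In epithelial cells the miR-200 family holds down ZEB1 and ZEB2, transcription factors that switch off E-cadherin, and the ZEB proteins in turn repress the miR-200 genes, so that each side of this loop restrains the other. miR-205 also targets the ZEB transcripts and is abundant in stratified epithelia such as skin. miR-203a is best known from skin, where it limits the proliferative capacity of epidermal progenitors, and it targets SNAI2, another EMT factor. A miRNA recognizes most of its targets by its seed, bases 2 to 8 from the 5′ end, so members that share a seed share many targets.

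The mature sequences are given because the seeds set the members apart and because near-identical members are the ones whose reads are hardest to tell apart. They were taken from RefSeq (GRCh38.p14), which held all 7, and are written 5′ to 3′ with the seed in capitals.
miR-203a-3p: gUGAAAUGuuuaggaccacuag
miR-205-5p: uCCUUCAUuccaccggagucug
miR-200b-3p: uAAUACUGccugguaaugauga
miR-200c-3p: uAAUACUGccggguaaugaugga
miR-429: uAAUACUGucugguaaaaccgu
miR-200a-3p: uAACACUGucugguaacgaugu
miR-141-3p: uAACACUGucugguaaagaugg

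miR-200b-3p, miR-200c-3p and miR-429 shared the seed AAUACUG, and miR-200a-3p and miR-141-3p shared AACACUG. Among the human mature miRNAs of the RefSeq table, the seeds of miR-203a-3p (UGAAAUG) and miR-205-5p (CCUUCAU) each belonged to 1 miRNA. Counting positions from 1 at the 5′ end, miR-200b-3p and miR-200c-3p differed at 2 of 22 positions (U11G and A22G, the first base being that of miR-200b-3p), and miR-200a-3p and miR-141-3p also at 2 (C17A and U22G, the first base being that of miR-200a-3p). miR-203a-3p differed from each of the other members at 13 to 19 positions.

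The members come from 4 places in the genome (GRCh38). MIR203A lies on chromosome 14, with the mature strand at chr14:104117469-104117490 on the plus strand, and is overlapped on the minus strand by MIR203B. miR-200b-3p (chr1:1167160-1167181), miR-200a-3p (chr1:1167916-1167937) and miR-429 (chr1:1169055-1169076) follow each other on the plus strand of chromosome 1, with 734 and 1117 bases between neighbours. miR-200c-3p (chr12:6963742-6963764) and miR-141-3p (chr12:6964155-6964176) lie 390 bases apart on the plus strand of chromosome 12, in an intron of the non-coding gene MIR200CHG. miR-205-5p (chr1:209432166-209432187, plus strand) lies in an intron of MIR205HG.

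The libraries held between 29863 and 388226 miRNA counts, with the fewest in shSYNCRIP replicate 2, and each detected between 100 miRNAs (shSYNCRIP replicate 4) and 275 (shSYNCRIP replicate 1). Where a member was at 0, counting error alone leaves room for a share as high as 0.000773% in shCTR replicate 3, the deepest library, and 0.0100% in shSYNCRIP replicate 2. The table counted miRNAs only, so the SYNCRIP transcript could not be used to check the labels. The paper reports reduced SYNCRIP in the silenced cells by RT-qPCR and western blot. It describes this depletion as weaker than that of METTL3, an RNA methyltransferase silenced separately.

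miR-203a-3p was the one abundant member in HepG2 sEVs. The shCTR libraries gave it 3724, 2980 and 12729 counts, and the shSYNCRIP libraries 8977, 3643, 3645 and 12957. With a mean of 5.68% ± 4.38 (SD, n = 7) of all miRNA counts it stood at rank 4 among all miRNAs, close to miR-191-5p at 5.67%, and it was 1 of 30 miRNAs with at least 100 counts in every library. Within libraries it stood at ranks 5, 11 and 7 in shCTR and at ranks 5, 2, 19 and 1 in shSYNCRIP. It was thus the most abundant miRNA of shSYNCRIP replicate 4.

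The other 6 members were low or patchy, and 6 of the 7 members had at least 1 count in any library. miR-200c-3p, the second most abundant, had 6, 115 and 704 counts in shCTR and 235, 108, 7 and 1085 in shSYNCRIP. miR-200b-3p was also detected in every library, with 7, 250 and 4 counts in shCTR and 5, 1, 3 and 2 in shSYNCRIP, so that 1 shCTR library held most of its counts. miR-429 was at 0 in all 7 libraries.

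The remaining 3 were seen in single libraries or at a few counts. miR-205-5p had 0, 174 and 0 counts in shCTR and 0 in each shSYNCRIP library. miR-141-3p had 0, 1 and 0 counts in shCTR and 166, 0, 11 and 0 in shSYNCRIP. miR-200a-3p, which shares its seed with miR-141-3p, had 1, 0 and 2 counts in shCTR and 1, 0, 10 and 0 in shSYNCRIP. Both miR-205-5p and miR-200b-3p were high in shCTR replicate 2 and in no other library.

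**Figure D1:**
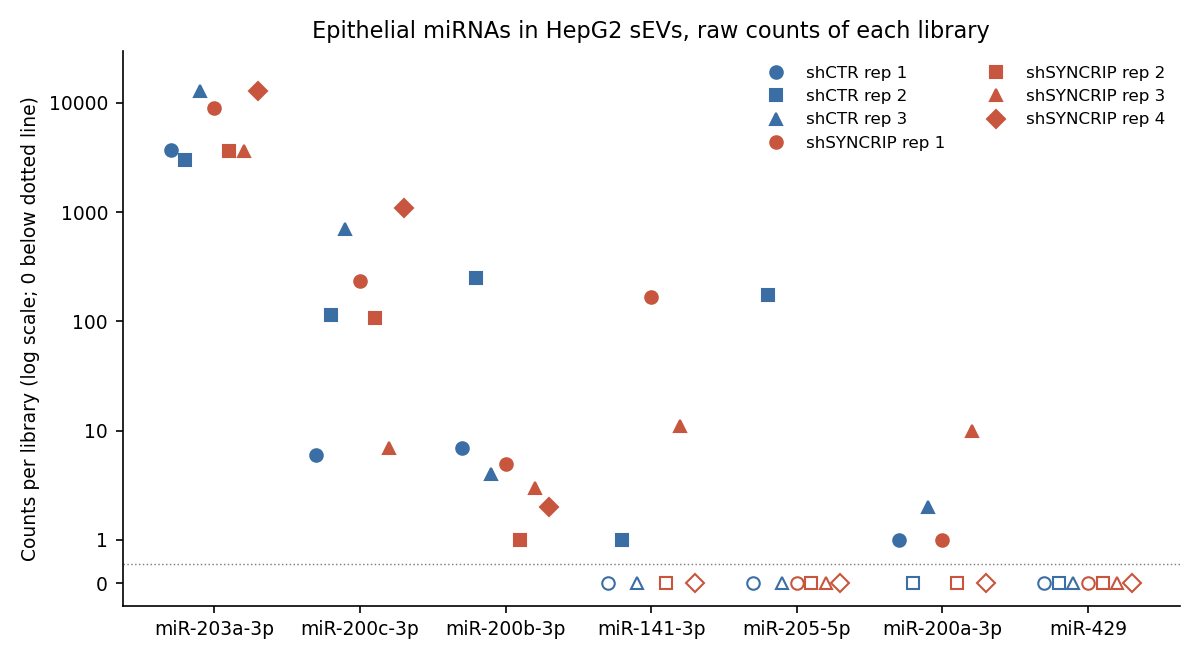
Raw counts of the 7 members (x axis) in each library (y axis, log scale, with counts of 0 drawn as open symbols below the dotted line). Blue symbols are the 3 shCTR and red symbols the 4 shSYNCRIP libraries, and symbol shape gives the replicate; miR-203a-3p lies between 2980 and 12957 counts, above every other member in each library.

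Of the 42 values of these 6 miRNAs, 20 were 0, 14 lay between 1 and 11, and 8 lay between 108 and 1085. None lay between 12 and 99 counts. That range was thinly filled in the whole table too, holding 103 (7.32%) of the 1407 values above 0, from 0% of the detected miRNAs in shSYNCRIP replicate 4 to 12.7% in shSYNCRIP replicate 1. The limits of 12 and 99 fit the members' own values, which end at 11 and resume at 108. The empty range is therefore a description and not a trait of this group, and the part of the counting depth in it was not tested.

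The opposite arms of the same hairpins were nearly absent. miR-203a-5p, miR-205-3p, miR-200c-5p and miR-141-5p were at 0 in every library, as were both arms of MIR203B, the gene antisense to MIR203A. miR-200a-5p had 1 count in shCTR replicate 3 and in shSYNCRIP replicate 3, and miR-200b-5p had 1 count in shSYNCRIP replicates 1 and 3. The counts assigned to the MIR203A locus were thus all from the arm named miR-203a-3p.

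miR-203a-3p exceeded every other member in 7 of 7 libraries. Raw counts were compared, since all members are 22 bases long except miR-200c-3p with 23, and how evenly the library kit captures different sequences was not measured. The ratio of miR-203a-3p to miR-200c-3p counts was 621, 25.9 and 18.1 in shCTR and 38.2, 33.7, 521 and 11.9 in shSYNCRIP. It was highest in shCTR replicate 1 and shSYNCRIP replicate 3, the libraries with 6 and 7 counts of miR-200c-3p. On the log2 scale this ratio was 6.05 ± 2.81 in shCTR and 5.73 ± 2.32 in shSYNCRIP (SD, n = 3 and 4), and the groups did not differ by more than the libraries did (exact permutation test, p = 0.8, Benjamini-Hochberg adjusted over 2 ratios 0.8).

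The ratio of miR-203a-3p to miR-200b-3p counts ran wider, from 11.9 in shCTR replicate 2 to 6479 in shSYNCRIP replicate 4. Its log2 values were 9.06, 3.58 and 11.64 in shCTR and 10.81, 11.83, 10.25 and 12.66 in shSYNCRIP, so the groups overlapped. The mean difference of 3.30 was within the spread of the libraries (exact permutation test, p = 0.114, adjusted 0.229). Of all counts given to the 7 members, miR-203a-3p took 99.6%, 84.7% and 94.7% in shCTR and 95.7%, 97.1%, 99.2% and 92.3% in shSYNCRIP.

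Ordered by mean share of counts over the 7 libraries, miR-203a-3p was followed by miR-200c-3p with 0.247% ± 0.331, miR-200b-3p with 0.0268% ± 0.0633, miR-205-5p with 0.0169% ± 0.0448, miR-141-3p with 0.0165% ± 0.0413 and miR-200a-3p with 0.000895% ± 0.00148 (SD, n = 7). Only the step from miR-203a-3p to miR-200c-3p and that from miR-200b-3p to miR-205-5p had the same direction in all 7 libraries among the steps between neighbours. miR-200c-3p was above miR-200b-3p in 5 libraries and below it in 2, and miR-205-5p was above miR-141-3p in 1, below it in 2 and tied at 0 in 4. Each of the 6 means below miR-203a-3p that was above 0 was smaller than its own SD.

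The miR-200 family therefore had no constant make-up across libraries. miR-200c-3p made up 42.9%, 31.4% and 99.2% of the family's counts in shCTR and 57.7%, 99.1%, 22.6% and 99.8% in shSYNCRIP. miRNAs with the seed AACACUG had 1, 1 and 2 counts in shCTR and 167, 0, 21 and 0 in shSYNCRIP, whereas those with the seed AAUACUG had 13, 365 and 708 in shCTR and 240, 109, 10 and 1087 in shSYNCRIP. The AAUACUG group was the larger in 6 of 7 libraries, the exception being shSYNCRIP replicate 3. How reads that fit several of these sequences were assigned is not given in the sources used here.

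SYNCRIP silencing was compared on the share of miRNA counts and on counts scaled by TMM to a common library size (CPM). miR-203a-3p took 3.50% (Wilson 95% interval 3.39 to 3.61), 2.03% (1.96 to 2.10) and 3.28% (3.22 to 3.34) of the counts in shCTR. In shSYNCRIP it took 5.95% (5.83 to 6.07), 12.2% (11.8 to 12.6), 1.51% (1.46 to 1.56) and 11.3% (11.1 to 11.5). Replicates 1, 2 and 4 of shSYNCRIP lay above all shCTR libraries and replicate 3 lay below all of them, so the groups overlapped. The highest shares came from the library with the fewest counts (replicate 2, 29863) and that with the fewest miRNAs detected (replicate 4, 100). The part of depth and of miRNAs detected in these shares was not tested. The intervals cover counting error only and treat amplified reads as independent, so they can understate the error of a library.

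On average miR-203a-3p took 2.94% ± 0.794 of the counts in shCTR and 7.73% ± 4.98 in shSYNCRIP (SD, n = 3 and 4), a difference of 4.80 percentage points that was within the spread of the libraries (exact permutation test, p = 0.229). Scaled levels were 29997 ± 8166 CPM and 81750 ± 54918 CPM, a ratio of means of 2.73, and the log2 CPM values differed by 1.11 (14.83 ± 0.43 and 15.94 ± 1.35, exact permutation test, p = 0.229). The highest shSYNCRIP library held 8.07 times the share of the lowest, against 1.73 times in shCTR. A share of vesicle RNA is relative, so more miR-203a-3p per vesicle, more vesicles that carry it and less of the other miRNAs cannot be told apart.

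**Figure D2:**
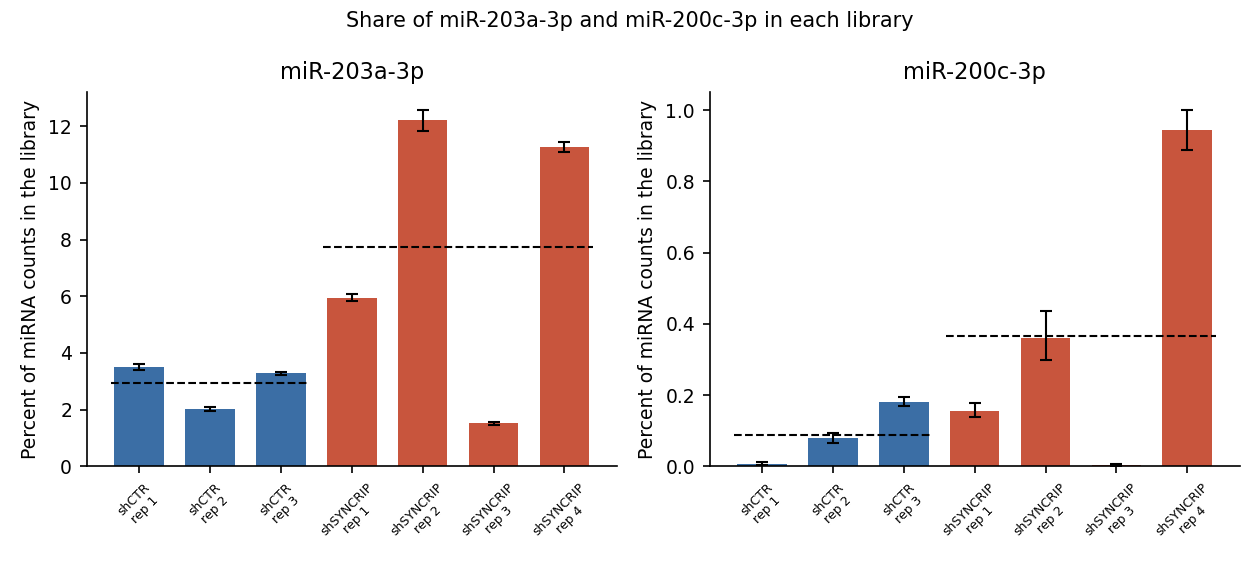
Share of miRNA counts (percent, y axis) taken by miR-203a-3p (left) and miR-200c-3p (right) in each library, with Wilson 95% intervals as error bars and group means as dashed lines. For miR-203a-3p, 3 shSYNCRIP libraries stand above all shCTR libraries and shSYNCRIP replicate 3 stands below them at 1.51%; miR-200c-3p has its highest share, 0.944%, in shSYNCRIP replicate 4.

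A total of 117 miRNAs passed the filter on low counts and were tested, 2 members among them, miR-203a-3p and miR-200c-3p. The study's criteria in limma-voom (nominal p under 0.1 and an absolute fold change above 0.5, read here as log2 because its scale is not spelled out) were met by 0 of these 2 members, and by 21 of the 117 miRNAs (17.9%), of which 15 were lower (12.8%) and 6 higher (5.13%) in shSYNCRIP. The excess of lower calls was not seen with the other tests at the same criteria, where edgeR gave 3 lower and 5 higher and DESeq2 4 lower and 7 higher. The limma-voom log2 fold change of miR-203a-3p was 0.53 with an SE of 0.45 (adjusted p = 0.763). The quasi-likelihood test of edgeR gave 1.45 for the same miRNA with an unadjusted p = 0.0243 and an adjusted p = 0.983. That test called 0 of 117 miRNAs (0%) at an adjusted p under 0.05, and 2 (1.71%) had an unadjusted p under 0.05. An adjusted p under 0.05 was reached by 3 of 117 in limma-voom (2.56%) and by 3 of 117 in DESeq2. No member was among those 3 in either test. In DESeq2 the adjusted p was 0.879 for miR-203a-3p and 0.983 for miR-200c-3p. Over all 117 miRNAs the median log2 fold change was -0.07 in limma-voom and 0.09 in edgeR.

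The result for miR-203a-3p turned on single libraries. Without shSYNCRIP replicate 3 its limma-voom log2 fold change was 1.32 (adjusted p = 0.0496), which met the criteria, while edgeR gave 1.58 (adjusted p = 0.211). Without shCTR replicate 1, shCTR replicate 2 or shSYNCRIP replicate 4 the limma-voom value was -0.03, -0.25 or -0.15. It fell to 0.28 without shSYNCRIP replicate 1, 0.13 without shSYNCRIP replicate 2 and rose to 0.76 without shCTR replicate 3, none of them past the criteria. The difference in mean log2 CPM stayed above 0 in each of these 7 cases, between 0.47 without shSYNCRIP replicate 4 and 1.54 without shSYNCRIP replicate 3.

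**Figure D3:**
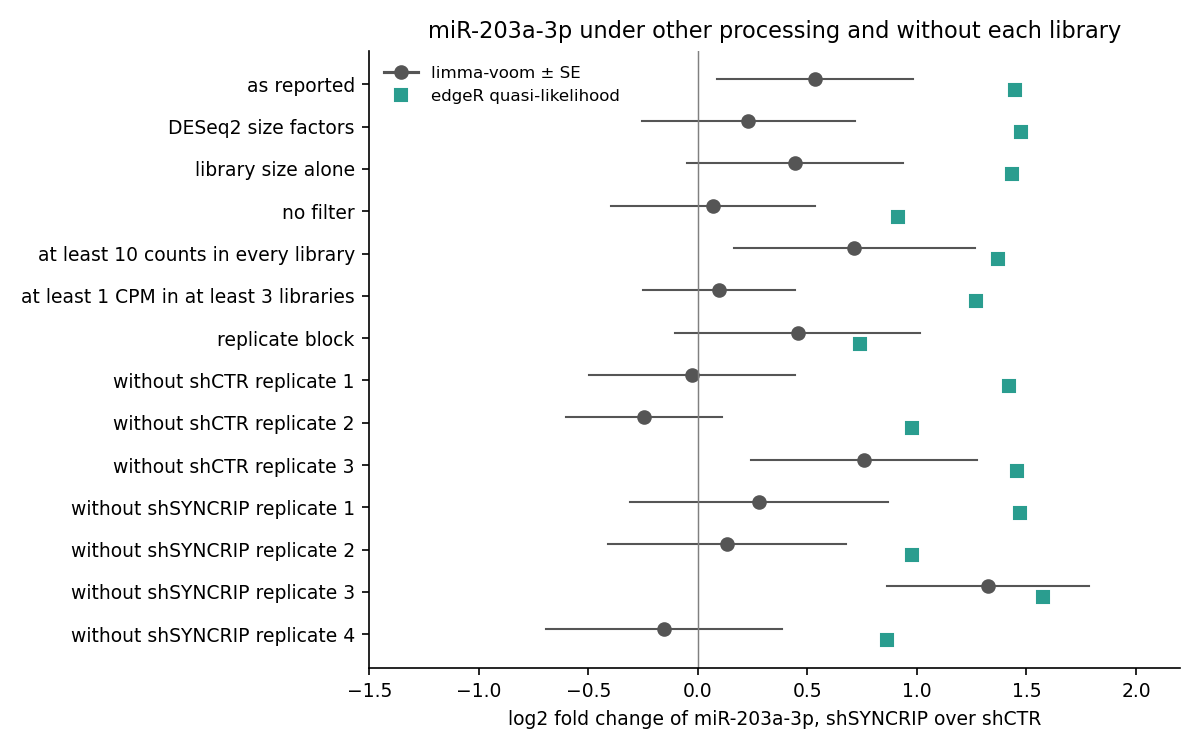
Log2 fold change of miR-203a-3p, shSYNCRIP over shCTR (x axis), from limma-voom (circles, bars ± SE) and the quasi-likelihood test of edgeR (squares), as reported, under other processing and without each library in turn (y axis). The limma-voom value runs from -0.25 to 1.32 when single libraries are left out, and the edgeR value from 0.86 to 1.58.

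Among the 30 miRNAs with at least 100 counts in every library, miR-203a-3p had the largest difference in mean log2 CPM between shSYNCRIP and shCTR, 1.11 against a median of -0.02, and the lowest was -1.03 for miR-6767-5p. Its SD within shSYNCRIP was the second largest of the 30, at 1.35 against a median of 0.83, while in shCTR its SD of 0.43 was near the median of 0.47. This set of 30 leaves out miRNAs that dropped to low counts in any library, and its order is given as a description.

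miR-200c-3p took 0.00564%, 0.0783% and 0.181% of the counts in shCTR and 0.156%, 0.362%, 0.00290% and 0.944% in shSYNCRIP. Its lowest values were in shSYNCRIP replicate 3 and shCTR replicate 1. The groups overlapped, while shSYNCRIP replicates 2 and 4 lay above all shCTR libraries. The mean log2 CPM was 8.89 ± 2.45 in shCTR and 10.32 ± 3.41 in shSYNCRIP (SD, n = 3 and 4, exact permutation test, p = 0.514). In limma-voom its log2 fold change was 0.41 with an SE of 2.53 (adjusted p = 0.992), and in edgeR it was 2.16 (adjusted p = 0.983). A difference of several fold in either direction lies within such an error.

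The other 5 members were too low for the filter. With no filter, 406 miRNAs were tested, of which 87 (21.4%) met the study's criteria, and these were 0 of the 6 members with any count, the smallest nominal p of limma-voom among them being 0.120. None of the 6 had an adjusted p under 0.05 in edgeR (smallest 0.461), beside 0 of all 406. The unadjusted edgeR p of miR-205-5p was 0.0308, and how many of the 406 fell under 0.05 was not counted. miR-205-5p had all its counts in shCTR replicate 2, so no fold change is given for it. The share of miR-200b-3p was 0.0593% ± 0.0961 in shCTR and 0.00241% ± 0.00108 in shSYNCRIP, and that of shCTR without replicate 2 lay at 0.00658% and 0.00103%, on both sides of the shSYNCRIP mean.

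**Figure D4:**
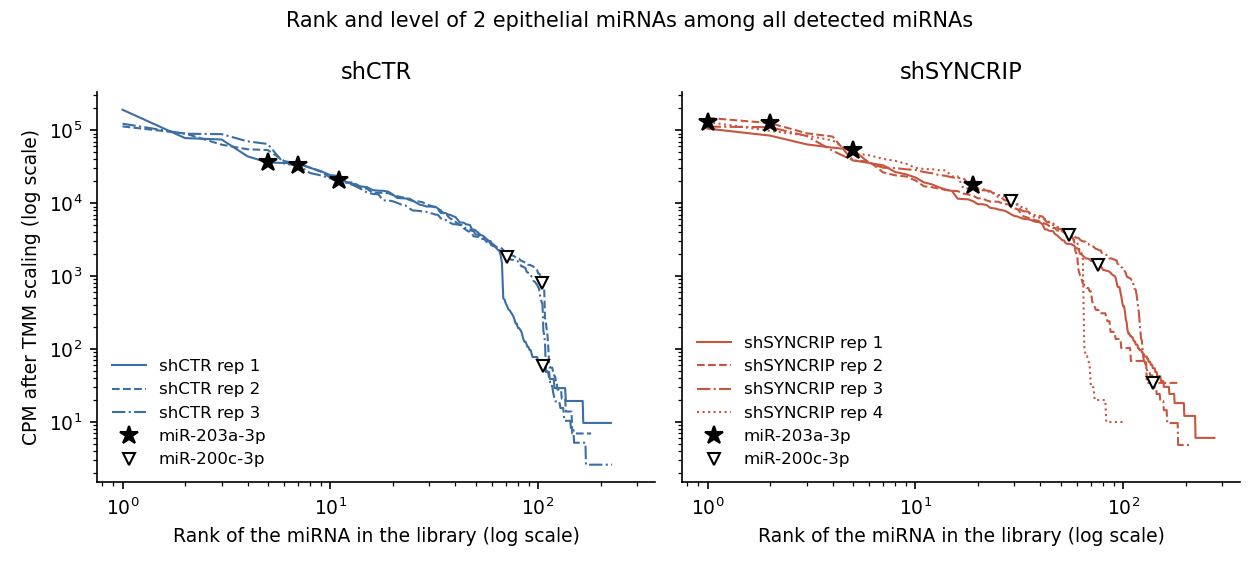
Level in CPM (y axis, log scale) against rank in the library (x axis, log scale) for all detected miRNAs, with shCTR libraries on the left and shSYNCRIP libraries on the right, each line being 1 library. Stars mark miR-203a-3p, at ranks 1 to 19, and triangles mark miR-200c-3p, at ranks 29 to 140, where the lines fall steeply.

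The tested miRNAs whose log2 CPM followed that of miR-203a-3p most closely over the 7 libraries were miR-27a-3p (Pearson r = 0.82), miR-200c-3p (r = 0.77) and let-7c-5p (r = 0.76). miR-27a-3p had 1711, 593 and 3005 counts in shCTR and 1226, 383, 760 and 2826 in shSYNCRIP. let-7c-5p had 561, 290 and 1046 counts in shCTR and 1100, 167, 488 and 501 in shSYNCRIP. For miR-200c-3p the closest were miR-203a-3p (r = 0.77), miR-23a-3p (r = 0.62) and miR-23b-3p (r = 0.59). Both members thus had their highest levels in shSYNCRIP replicates 2 and 4 and their lowest in shSYNCRIP replicate 3. These are descriptions over 7 points from the same libraries, which share depth and scaling, and for miR-200c-3p they lean on the libraries with 6 and 7 counts.

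Markers of other cells were set beside these values. The 9 miRNAs of blood cells, all detected, together took 21.6% to 27.4% of the counts in shCTR and 13.1% to 23.7% in shSYNCRIP, lowest in shSYNCRIP replicates 4 (13.1%) and 2 (17.3%), the libraries with the most miR-203a-3p. The most abundant was miR-486-5p, with 19681, 16232 and 34044 counts in shCTR and 17387, 2644, 23181 and 9816 in shSYNCRIP. Next came miR-16-5p, which many cell types also express. The red-cell miRNA miR-451a had 236, 1241 and 2803 counts in shCTR and 1042, 1, 6279 and 0 in shSYNCRIP. It was therefore at or near 0 in those same 2 libraries and highest in shSYNCRIP replicate 3, where miR-203a-3p was lowest. The larger blood-cell miRNAs did not all follow this. In shSYNCRIP replicates 2 and 4, miR-486-5p had 90923 and 98234 CPM, within the shCTR range of 88477 to 191164 CPM. miR-16-5p had 82017 and 48456 CPM there, against 78142 to 90297 CPM in shCTR. The part of blood-cell miRNAs in the result was not tested. Of the 8 blood-cell miRNAs tested, 3 were lower by the study's criteria (miR-451a, miR-142-5p and miR-126-3p, named after their values were seen) and 0 higher, beside 12.8% lower and 5.13% higher among all 117, and limma-voom and edgeR each gave 0 at an adjusted p under 0.05 (and 0 at an unadjusted p under 0.05 in edgeR). The sign for miR-451a depended on the test, with a log2 fold change of -3.62 in limma-voom, 0.60 in edgeR and 0.32 in DESeq2 and mean levels of 6071 CPM in shCTR and 9184 CPM in shSYNCRIP.

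The skin miRNAs listed outside the members, looked at because miR-203a and miR-205 are abundant there, were nearly absent. Of 5 such miRNAs only miR-31-5p was detected, with 3, 1 and 2 counts in shCTR and 17, 1, 0 and 0 in the shSYNCRIP libraries. The other 4, miR-944, miR-211-5p and both arms of MIR203B, were at 0. Liver miRNAs were present in every library. miR-122-5p, the main miRNA of hepatocytes, had 667, 502 and 1664 counts in shCTR and 1296, 442, 912 and 313 in shSYNCRIP, fewer than miR-203a-3p in each library. The 6 liver miRNAs, of which 5 were detected, took 1.14% to 2.17% of the counts in shCTR and 0.597% to 3.00% in shSYNCRIP, with the highest share in shSYNCRIP replicate 3 and the lowest in replicate 4. miR-483-3p was the most abundant of them. The study's criteria were met by 0 of the 4 tested, beside 17.9% of all 117, and a count of 0 says little for so few.

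The other miRNAs listed as opposing EMT were scarce in these sEVs. The list is not complete, so its share depends on which miRNAs it holds. The 15 listed outside the 7 members, among them miR-34, miR-30 and miR-148a, were each detected in at least 1 library, but together they took 0.188% to 0.554% of the counts in shCTR and 0.208% to 0.408% in shSYNCRIP, less than miR-203a-3p alone in each library. Of the 5 tested, 0 met the study's criteria, beside 17.9% of all 117, and a count of 0 says little for so few. Their median log2 fold change was -0.54 in limma-voom and 0.91 in edgeR, which differ in sign. miR-148a-3p, which targets DNMT1, had 265, 278 and 3 counts in shCTR and 200, 1, 298 and 0 in shSYNCRIP, whereas miR-30d-5p reached 10, 495 and 0 in the shCTR libraries and 14, 2, 10 and 208 in the shSYNCRIP libraries. Both were high in some libraries of each group and near 0 in others.

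The miRNAs listed as favouring EMT or invasion took a larger share than the 15 listed above as opposing it. Those 15 leave out the 7 members, so miR-203a-3p is on neither side of the contrast. This contrast depends on which miRNAs each list holds. Of 12, 10 were detected (miR-373-3p and miR-520c-3p were at 0), and together they took 7.56% to 12.4% of the counts in shCTR and 6.51% to 13.9% in shSYNCRIP. miR-103a-3p, which lowers DICER1, had 3659, 7884 and 27101 counts in shCTR and 9523, 497, 10797 and 1613 in shSYNCRIP, with a limma-voom log2 fold change of -0.54 (adjusted p = 0.763). miR-23a-3p had 3146, 4406 and 13353 counts in shCTR and 5854, 1086, 7358 and 8470 in shSYNCRIP, with a limma-voom log2 fold change of 0.37 (adjusted p = 0.856). Of the 8 tested, 0 met the study's criteria, beside 17.9% of all 117, and a count of 0 says little for so few. Their median log2 fold change was -0.73 in limma-voom and -0.14 in edgeR. In shSYNCRIP replicates 2 and 4, miR-203a-3p alone had more counts than these 12 miRNAs together.

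SYNCRIP is known to bind miRNAs through the hEXO motif, searched here on the mature strand outside the first 7 bases as 6 bases in a row, 3 of any base but C, then any base but U, then A or U, then G or C. In miR-203a-3p it began at position 11 and in miR-200c-3p the first of 2 matches began at position 13, and these stand in capitals.
miR-203a-3p: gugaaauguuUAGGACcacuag
miR-200c-3p: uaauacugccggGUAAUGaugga

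All 7 members held a match, as did 63.6% of the 2370 human mature miRNAs in the RefSeq table and 61.9% of the 105 tested miRNAs with a sequence there. The motif is loose, and a match is a description and not a binding site. It was held alike by the abundant miR-203a-3p and by miR-429, which was at 0 in every library. The libraries came from sEVs only, so the levels of both in the cells are not known.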

How the data were processed

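Small RNA-seq counts of sEVs from HepG2 cells were analysed for 3 shCTR and 4 shSYNCRIP libraries. The authors trimmed reads with FastqToolkit 2.2.5, filtered them by length and quality with Cutadapt, kept forward reads, counted them with MiRDeep2 1.3.1 against miRBase 22.1, and deposited raw counts per mature miRNA without normalization. Treatment of reads that fit several miRNAs is not given in the sources used here.

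Counts were analysed in R 4.3.3 with the packages limma 3.58.1, DESeq2 1.42.0 and edgeR 4.0.16, and sequences in Python 3.11.15. miRNAs were kept by the default filter of edgeR (filterByExpr, 117 of 2656) and scaled by TMM. The main test was limma-voom, the study's pipeline, with its criteria of a nominal p under 0.1 and an absolute fold change above 0.5, read as log2. The quasi-likelihood test of edgeR used a Benjamini-Hochberg adjusted p under 0.05. Both were fitted over all 117 miRNAs with every library and no covariate. The code for both was also run on simulated counts, which does not measure their error in these data. Single values were compared by two-sided exact permutation of the group labels (35 arrangements), where the smallest p is 0.0286. CPM is the count scaled by edgeR to its TMM-adjusted library size, and log2 CPM used a prior count of 2.

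Library totals ran from 29863 to 388226 counts. Wilson 95% intervals and the limit set by a count of 0 (3 counts) cover counting error only, because amplified reads are not independent molecules. The members and lists were chosen with earlier results of these data known. Named miRNAs were the 7 members, the other arms of their hairpins, the 3 tested miRNAs closest in pattern to each tested member, and from each context list the miRNAs with an adjusted p under 0.05, or otherwise the 2 with the highest mean CPM. Others were chosen after their values were seen and are marked so. Alternatives were other size factors, filters, tests, thresholds and prior counts, library quality weights, a replicate block and each library left out.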

Additional observations from a re-analysis of the deposited data

Results flagged for a closer look

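In 2 cases the value of 1 shSYNCRIP library lay far from the other 3 (Dixon's criterion for 4 values, on the gap to the nearest library over the whole range). miR-200a-3p took 0.00415% of the counts in shSYNCRIP replicate 3, which rests on 10 counts, and 0 or 1 count in the others. miR-141-3p took 0.110% of the counts in shSYNCRIP replicate 1, where it had 166 counts, against 11, 0 and 0 in the others. Of 15 such groups looked at, the criterion would single out about 1 in 20, or 0.75, if values were normally distributed. Shares with counts of 0 are not, and the groups share libraries, so that rate need not hold here. These values enter no called difference.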

How the results depend on the processing

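The difference in mean log2 CPM of miR-203a-3p kept its direction under 12 of 12 alternatives and its difference in share under 9 of 9. With a library left out or with the block, an exact permutation p cannot fall under 0.05, so those cases show direction only. Its edgeR value kept its direction and stayed short of the threshold under 14 of 14, and its limma-voom value under 10 of 14. With each library left out, these ran from 0.47 to 1.54 (log2 CPM), 3.31 to 6.87 percentage points (share), 0.86 to 1.58 (edgeR) and -0.25 to 1.32 (limma-voom), the last being below 0 without shCTR replicate 1 (-0.03), shCTR replicate 2 (-0.25) and shSYNCRIP replicate 4 (-0.15) and past the criteria at 1.32 without shSYNCRIP replicate 3. The limma-voom value of miR-200c-3p ran from -1.42 to 2.29, below 0 without shCTR replicate 1 (-1.42), shSYNCRIP replicate 1 (-0.17) and shSYNCRIP replicate 4 (-0.36), and its edgeR value from 0.54 to 3.31. With at least 10 counts required in every library, miR-200c-3p was not tested. The 21 miRNAs that met the study's criteria became 87 of 406 with no filter (22 lower, 65 higher), 3 of 36 with at least 10 counts in every library, 13 with a replicate block (7 lower, 6 higher), 12 at a nominal p under 0.05, 4 at an adjusted p under 0.1, 8 in edgeR (3 lower, 5 higher) and 11 in DESeq2 (4 lower, 7 higher), and 16 to 22 with each library left out. The 0 miRNAs with an adjusted p under 0.05 in edgeR (smallest 0.316) became 3 in DESeq2 and 3 in limma-voom, and stayed at 0 with each library left out. The cause of these changes was not tested. The filters and the left-out libraries also changed how many miRNAs were tested. Scaling by DESeq2 size factors moved the median log2 fold change of all miRNAs in limma-voom from -0.07 to -0.27, and miR-203a-3p stood 0.60 above the median with TMM, 0.50 with those factors and 0.53 with library size alone. Libraries with the same replicate number did not deviate together (r = -0.06, -0.03 and 0.09), and not every library correlated best with its own number, so the block is given here only. Under it miR-203a-3p had 0.46 in limma-voom and 0.74 in edgeR. Of the 42 values of the members other than miR-203a-3p, 20 were 0 and 14 rest on 1 to 11 counts, where single counts limit the precision.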
